A study of Mus musculus with 3 samples.

Results

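The nuclear genes that encode the respiratory chain were examined in mouse bone marrow-derived macrophages (BMDMs) after 3 kinds of stimulation. Members were the genes whose name on the array stands for a subunit, or a protein named after one, of NADH dehydrogenase (complex I, Nduf), succinate dehydrogenase (complex II, Sdh), the cytochrome bc1 complex (complex III, Uqcr), cytochrome c oxidase (complex IV, Cox) or ATP synthase (complex V, Atp5). The rule found 93 of the 34821 gene names of the array, and 87 of these, out of 33597 names in all, were measured on all 3 arrays. Among the 87 were 76 subunits, of which 32 belonged to complex I, 4 to complex II, 8 to complex III, 17 to complex IV and 15 to complex V. The other 11 were assembly factors, a pseudogene and other proteins that carry such a name.

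BMDMs of C57BL/6J mice, grown from bone marrow cells in medium with M-CSF, were treated for 20 h with CpG, with IFN-γ + αIL-10R (IFN-g+IL-10RB in the labels), or with all of them at once (Triple). CpG DNA activates macrophages through TLR9. αIL-10R, an antibody to the receptor of IL-10, keeps this inhibitory cytokine from acting. The age and sex of the mice were not given, and no array of unstimulated BMDMs was used here, so that each difference is between stimulated cells. Each condition had 1 array, and no difference has a replicate check or a test. The study compared these arrays to find genes increased in Triple, and the respiratory chain was not its subject.

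The respiratory chain passes electrons from NADH (complex I) and succinate (complex II) through ubiquinone to complex III, and from there through cytochrome c to complex IV, which reduces oxygen. The proton gradient built by complexes I, III and IV drives ATP synthesis by complex V. Most subunits are encoded in the nucleus, and a few hydrophobic ones in mitochondrial DNA. Macrophages activated by TLR ligands and IFN-γ are known to shift from respiration to glycolysis, partly through nitric oxide from Nos2 and itaconate from Irg1, which act on the finished complexes.

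Signals are the scanner software's processed intensities, which were not scaled between arrays, and differences are between log2 signals after each array had been shifted by its 75th percentile. Those percentiles lay between 4377 and 4550. Between 44.4% and 46.0% of the spots of an array were well above background, and no spot was saturated. Replicate spots gave a technical SD of 0.13 for a log2 difference between arrays, which covers spot noise only. All 5 macrophage markers measured were well above background on every array. Their summed signals were 554520 in CpG, 565040 in IFN-γ + αIL-10R and 428190 in Triple, but they did not move together. In the same order, Cd68 had 153500, 190900 and 83200, and Csf1r 196800, 230500 and 159100, both lowest in Triple. Emr1 had 151500, 80480 and 134200, and Itgam 26990, 10580 and 16380, both lowest in IFN-γ + αIL-10R. Fcgr1 had 25730, 52580 and 35310. Of the markers of other cell types, those of neutrophils had the highest sums, 3411, 9325 and 4203 in the same order. Ly6g had 555, 7699 and 2658, so that it was high in IFN-γ + αIL-10R, Elane had 2839, 1615 and 1539, and Mpo, an enzyme of neutrophil granules, was not well above background on any array. No other marker exceeded 869. The part of other cells in the results was not tested, and in a bulk sample fewer cells and less RNA per cell cannot be told apart.

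The subunits of the respiratory chain varied less between the conditions than most genes. A signal limit was set at a mean over the arrays of 0.25 times the 75th percentile signal, which 8045 genes reached. Of the 76 subunits, 70 reached it (32, 4, 8, 11 and 15 of complexes I to V), and their median signal was 33620 in CpG, 37500 in IFN-γ + αIL-10R and 31390 in Triple. The range of a subunit's normalized log2 signal over the 3 arrays had a median of 0.25, against 0.46 for all genes. In 36 of 70 subunits (51.4%) this range stayed under 2 technical SD, as it did in 22.7% of all genes. The 2066 genes that were as bright as the brighter 3 in 4 subunits had a median range of 0.43 and 20.7% under 2 technical SD, against 0.26 and 26 of 52 for the subunits among them. This brighter background was chosen after the values had been seen.

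**Figure D1:**
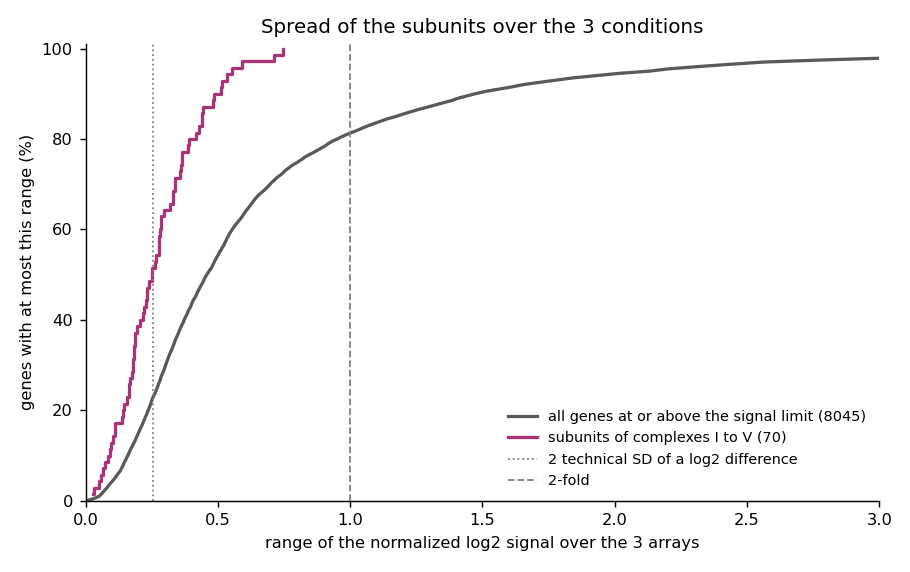
Range of the normalized log2 signal over the 3 arrays (x axis) against the percentage of genes with at most that range (y axis), for the 70 subunits and for 8045 genes at or above the signal limit. These 70 end at 0.75, below the 2-fold line (Cox7a1 lies under the limit and is not drawn), while the curve of all genes runs on past it.

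What the promoters of these genes share was read from RefSeq (GRCm38.p6), which held a promoter, 250 bases before to 50 after the start, for 62 of the 76 subunits. Searched on both strands, the motif GCGCANGCG, bound by the nuclear respiratory factor NRF1, was in the promoters of 20 of these 62 genes (32.3%), against 9.6% of 17491 protein-coding genes. The letters CCGGAAG of ETS factors such as GABP were in 22.6% of the subunit genes and 12.9% of all genes, and AAGATGGCG, a YY1 motif, in 11.3% and 2.1%. GGGCGG, the GC box of SP1, was in 38.7% and 49.2%. TTCNNNGAA, the gamma-activated sequence read by STAT factors downstream of IFN-γ, was in 8.1% and 8.9%, and TGACGTCA, the cAMP response element, in 4.8% and 2.5%. For each complex, 1 gene among those with the most NRF1, ETS and YY1 matches lying wholly before the start was taken (the first by name where several tied), and its 250 bases before the start are printed, 5′ to 3′, to show what these matches look like in place. Matches at or after the start, such as 3 of NRF1 in Uqcrc1, did not count in this choice. Capitals mark NRF1, ETS and YY1 matches, and the run GCGCATGCGC in Cox6a1 and Atp5g2 holds 2 NRF1 matches that overlap on opposite strands.
Ndufb4 (chr16:37654369-37654618, minus strand): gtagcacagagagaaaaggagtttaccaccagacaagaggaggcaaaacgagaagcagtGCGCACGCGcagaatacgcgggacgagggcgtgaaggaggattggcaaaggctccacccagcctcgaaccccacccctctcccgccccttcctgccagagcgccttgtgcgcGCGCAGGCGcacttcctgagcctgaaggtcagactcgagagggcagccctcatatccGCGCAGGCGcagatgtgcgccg
Sdha (chr13:74350241-74350490, minus strand): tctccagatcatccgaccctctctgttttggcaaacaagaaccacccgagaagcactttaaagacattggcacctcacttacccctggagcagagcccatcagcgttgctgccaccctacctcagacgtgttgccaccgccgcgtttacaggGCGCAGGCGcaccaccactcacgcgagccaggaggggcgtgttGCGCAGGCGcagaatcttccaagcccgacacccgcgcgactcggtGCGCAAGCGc
Uqcr11 (chr10:80406822-80407071, minus strand): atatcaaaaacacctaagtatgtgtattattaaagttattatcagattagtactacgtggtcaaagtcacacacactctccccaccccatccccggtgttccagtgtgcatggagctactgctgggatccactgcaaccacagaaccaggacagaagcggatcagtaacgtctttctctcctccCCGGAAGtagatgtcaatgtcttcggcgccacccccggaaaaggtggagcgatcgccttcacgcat
Cox6a1 (chr5:115348959-115349208, minus strand): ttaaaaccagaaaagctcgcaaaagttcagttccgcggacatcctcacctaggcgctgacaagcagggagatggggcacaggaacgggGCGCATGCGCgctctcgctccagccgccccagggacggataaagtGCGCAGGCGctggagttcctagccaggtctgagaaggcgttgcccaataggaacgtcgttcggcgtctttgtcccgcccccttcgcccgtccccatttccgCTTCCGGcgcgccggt
Atp5g2 (chr15:102671048-102671297, minus strand): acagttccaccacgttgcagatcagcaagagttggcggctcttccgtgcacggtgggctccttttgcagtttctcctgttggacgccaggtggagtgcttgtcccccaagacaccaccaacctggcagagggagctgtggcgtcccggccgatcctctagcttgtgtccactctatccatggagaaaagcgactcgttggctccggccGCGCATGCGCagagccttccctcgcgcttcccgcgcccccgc
A match is a description of the letters and not evidence of binding. The 20 subunits with an NRF1 match and the 38 without one among those at or above the limit had similar median log2 differences, −0.19 and −0.15 for Triple against IFN-γ + αIL-10R, 0.00 and 0.04 for Triple against CpG, and −0.14 and −0.15 for CpG against IFN-γ + αIL-10R. Neither Ndufv3 nor Uqcr10, which are described further on, had an NRF1, ETS or YY1 match in its window.

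None of the 70 subunits at or above the limit differed 2-fold in any comparison. This count leaves out Cox7a1, which was well above background on every array and over 2-fold lower in Triple, and whose low signal in Triple is what put its mean under the limit. With the limit set on the brightest array instead, an alternative chosen after the values had been seen, 71 subunits were counted and Cox7a1 was the 1 past 2-fold lower in Triple against IFN-γ + αIL-10R and against CpG, where 8.16% and 6.81% of 8726 genes were. For Triple against IFN-γ + αIL-10R, 5.25% of all genes were 2-fold higher and 6.59% 2-fold lower. These shares were 6.64% and 5.48% for Triple against CpG, and 3.63% and 4.64% for CpG against IFN-γ + αIL-10R. At 1.5-fold, 1 of 70 subunits was higher in Triple than in IFN-γ + αIL-10R (Cox6a2) and 1 was lower (Ndufv3), or 1.43% each, against 11.3% and 13.3% of all genes. In Triple against CpG 0 of 70 passed 1.5-fold in either direction, against 12.0% higher and 12.3% lower among all genes. In CpG against IFN-γ + αIL-10R none was higher and 1 was lower (Uqcr10), against 8.74% and 10.2%. Among the 2066 brighter genes the shares at 1.5-fold were 11.1% higher and 6.92% lower in Triple against IFN-γ + αIL-10R. They were 14.0% and 8.52% in Triple against CpG, and 7.12% and 9.78% in CpG against IFN-γ + αIL-10R. The 52 subunits among these genes had 0.0% and 1.92%, 0.0% and 0.0%, and 0.0% and 1.92% in the same order. With 1 array per condition a count of 0 has no test beside it, and at a lower threshold, a log2 difference of 0.32 (applied to the 70), 5 subunits were higher and 5 lower in Triple than in CpG.

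The small differences that were there had a common direction in some complexes. Because the choice of scaling moved the median of all genes for Triple against IFN-γ + αIL-10R between −0.21 and 0.08, the medians of the complexes are given as distances from the median of all genes in the same comparison. In CpG against IFN-γ + αIL-10R the subunits lay at −0.16 relative to all genes on the log2 scale, and 58 of 70 were under the median of all genes. All 15 subunits of complex V were under it (−0.22), as were 4 of 4 of complex II (−0.15), 7 of 8 of complex III (−0.19) and 26 of 32 of complex I (−0.12), whereas complex IV was divided, with 6 of 11 under it (−0.08). The range of the median for all subunits over the alternatives was −0.19 to −0.15.

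In Triple against IFN-γ + αIL-10R, complexes I and V lay under all genes, by −0.13 (24 of 32 subunits) and −0.17 (10 of 15), with −0.17 to −0.11 and −0.20 to −0.15 over the alternatives. Complex II was at −0.01, complex III at 0.05 and complex IV at 0.06. The sign of complex II turned with normexp background correction, that of complex III with quantile normalization, with the mean of all probes and without the first 48 rows of the array, and that of complex IV without those rows. In Triple against CpG the subunits lay above all genes (0.10, 48 of 70), with 0.21 for complex II, 0.26 for complex III, 0.16 for complex IV, 0.11 for complex V and 0.02 for complex I. The sign for complex I turned under quantile normalization and with RefSeq mRNA probes only. Both comparisons of Triple use the same Triple array, and Triple against CpG shares the CpG array with CpG against IFN-γ + αIL-10R. The comparisons against IFN-γ + αIL-10R share that single array, so that their shifts under all genes are not separate observations. IFN-γ + αIL-10R was the highest of the 3 arrays for 39 of 70 subunits, Triple for 21 and CpG for 10, while CpG was the lowest for 33, Triple for 30 and IFN-γ + αIL-10R for 7. Among all genes the highest array was CpG in 37.4%, IFN-γ + αIL-10R in 31.2% and Triple in 31.4%, and the lowest was CpG in 27.3%, IFN-γ + αIL-10R in 31.4% and Triple in 41.3%, so that the share of subunits lowest in Triple (42.9%) was near that of all genes.

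**Figure D2:**
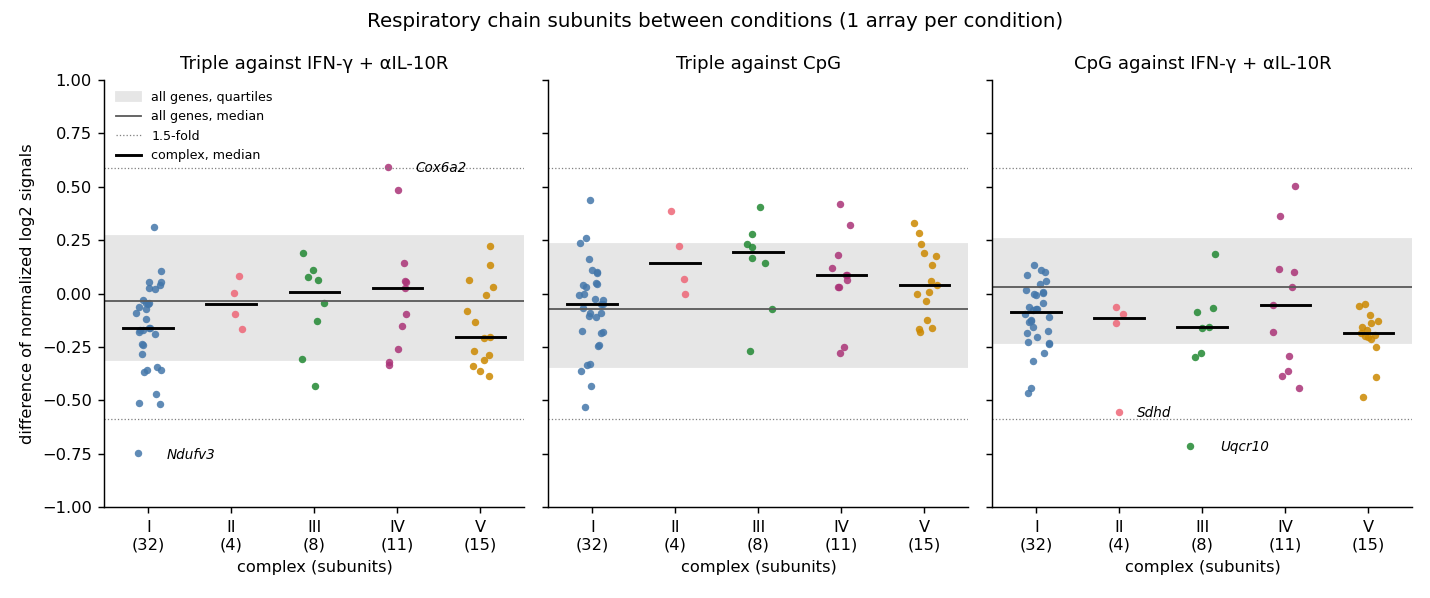
Difference of normalized log2 signals (y axis) for each subunit at or above the signal limit, by complex, in the 3 comparisons. The grey band runs from the lower to the upper quartile of all genes and the dotted lines mark 1.5-fold, which only Cox6a2, Ndufv3 and Uqcr10 pass. Before the shift of all genes is taken off, scaling turns the sign of the small medians for Triple against IFN-γ + αIL-10R.

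**Figure D3:**
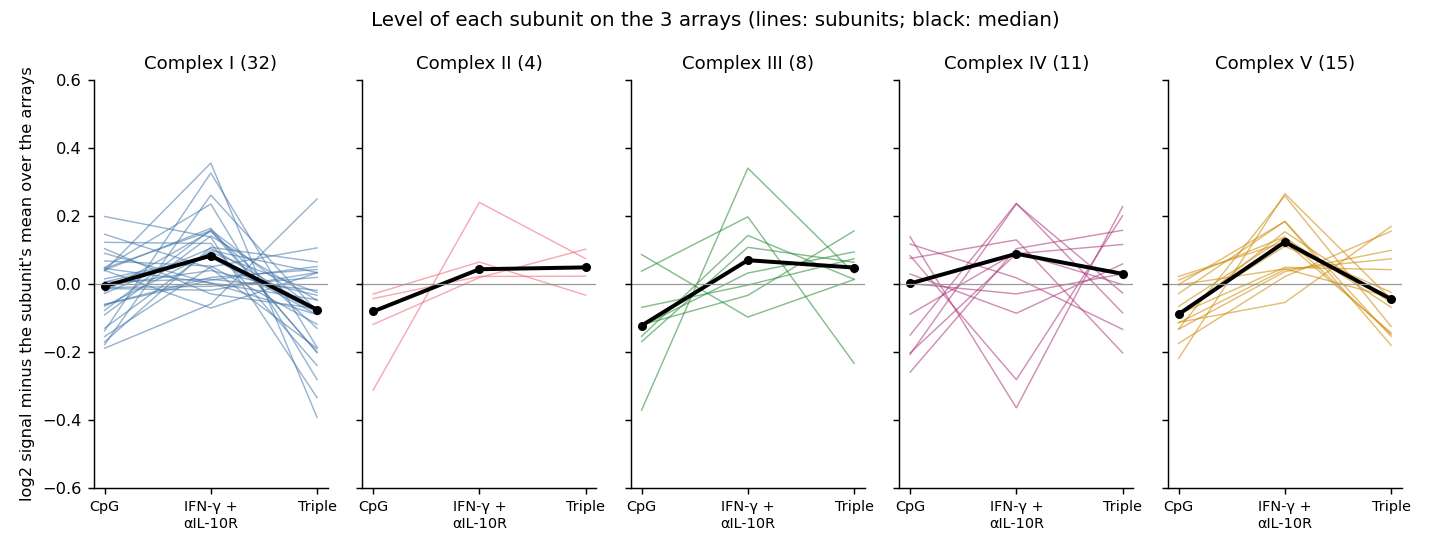
Normalized log2 signal of each subunit on the 3 arrays minus its own mean (y axis), by complex, with the median in black. Complex V is highest in IFN-γ + αIL-10R for 11 of 15 subunits and complex I for 18 of 32.

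Complex I takes electrons from NADH. Of its catalytic core, which binds NADH, flavin and the iron-sulfur clusters, Ndufv1 had signals of 18970 in CpG, 18579 in IFN-γ + αIL-10R and 18857 in Triple. Ndufs1 had 12734, 11591 and 12189 in the same order. Neither gene differed by more than 0.11 between any pair of arrays on the normalized log2 scale. The 5 core subunits measured lay 0.09 above all genes in Triple against IFN-γ + αIL-10R, and the 27 accessory subunits, which surround the core and are needed for its assembly and stability, lay at −0.13, 22 of 27 under all genes. The value of the core turned to −0.03 when spots with an outlier mark were kept, which added the core subunits Ndufs3 and Ndufv2, so that the contrast between core and accessory subunits depended on which core subunits were measured.

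The accessory subunit with the largest difference was Ndufv3, with signals of 45248 in CpG, 55399 in IFN-γ + αIL-10R and 32283 in Triple. It was lowest in Triple, 1.68-fold lower than in IFN-γ + αIL-10R (log2 −0.75) and 1.35-fold lower than in CpG (−0.43). Its probe lies at chr17:31668209-31668268 in the array's mm9 annotation. A dimmer probe of the same transcript at chr17:31665148-31665207 gave −0.63 and −0.19, whereas a dim probe at chr17:31663758-31663817, annotated to another cDNA, gave 0.00 and 0.58. The probes of Ndufv3 therefore differed by more than 2 technical SD, and its mean over probes was −0.46 for Triple against IFN-γ + αIL-10R and −0.01 for Triple against CpG, so that the second difference rested on the choice of probe. Transcript models were not used here to place these probes in exons.

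Other accessory subunits were lower in Triple as well. Ndufb11 had 39799 in CpG, 37517 in IFN-γ + αIL-10R and 26465 in Triple (−0.53 against CpG and −0.47 against IFN-γ + αIL-10R). A probe annotated to another cDNA gave nearly the same values (−0.53 and −0.48), but its annotated place is on chr5 and that of the probe used on chrX. A dim probe of the same transcript as the probe used gave −0.82 and −0.28. For CpG against IFN-γ + αIL-10R that dim probe gave 0.53, where the probe used gave 0.06. Ndufa12 had 35225, 39409 and 26963 in the same order (−0.33 and −0.52), and Ndufb4 36678, 35971 and 27454 (−0.36 and −0.36). For these 3 genes Triple was the lowest of the arrays by more than 2 technical SD. Ndufb5 differed in another way, with 13485 in CpG, 18286 in IFN-γ + αIL-10R and 12540 in Triple, so that it was lower on both arrays with CpG (−0.46 and −0.51 against IFN-γ + αIL-10R). Ndufs4, an accessory subunit whose loss in mice causes a complex I deficiency, had the largest difference in favour of Triple among the complex I subunits, with 12776, 13744 and 16664 (0.44 against CpG and 0.31 against IFN-γ + αIL-10R).

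Complex II oxidizes succinate to fumarate and is also an enzyme of the citric acid cycle. The flavoprotein Sdha had signals of 15716 in CpG, 16491 in IFN-γ + αIL-10R and 15087 in Triple, and the iron-sulfur protein Sdhb had 68127, 73674 and 76401. The membrane anchor Sdhc had 15397, 15833 and 15504. At the probes used, these 3 differed by at most 0.22 between any pair of arrays. Sdhd, the other membrane anchor, had 27690 in CpG, 39916 in IFN-γ + αIL-10R and 34833 in Triple, and was 1.47-fold lower in CpG than in IFN-γ + αIL-10R (−0.55) and 1.31-fold higher in Triple than in CpG (0.39). At the probes used, Sdhd thus stood apart from the other 3, with which it is assembled in equal number. A dimmer probe of Sdhb, however, went the same way as Sdhd by more than 2 technical SD. It gave −0.30 for CpG against IFN-γ + αIL-10R and 0.27 for Triple against CpG.

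Complex III hands electrons from ubiquinol to cytochrome c. The core protein Uqcrc1 had signals of 11539 in CpG, 12047 in IFN-γ + αIL-10R and 13445 in Triple, and the Rieske iron-sulfur protein Uqcrfs1 had 13110, 15620 and 14830. Both were a little higher in Triple than in CpG (0.28 and 0.23). The small subunit Uqcr10 varied most in this complex, with 33452 in CpG, 53860 in IFN-γ + αIL-10R and 42566 in Triple. It was 1.64-fold lower in CpG than in IFN-γ + αIL-10R (−0.71) and 1.32-fold higher in Triple than in CpG (0.40). Its other probes gave −0.63 and −0.58 for CpG against IFN-γ + αIL-10R, and the probe used lies at chr11:4601979-4602038 on mm9. Uqcrb, which binds at the ubiquinone site, was among the few subunits higher in CpG than in IFN-γ + αIL-10R (32502 in CpG, 28123 in IFN-γ + αIL-10R and 29716 in Triple, 0.18), but its other probe differed from the first by more than 2 technical SD in the other comparisons.

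Complex IV reduces oxygen to water, and several of its nuclear subunits exist as a widely expressed form and a form restricted to muscle, lung or testis. Cox4i1 had signals of 100120 in CpG, 111620 in IFN-γ + αIL-10R and 102310 in Triple, Cox6a1 265660, 241060 and 260850, and Cox7a2 29169, 35098 and 35005. For these widely expressed forms the arrays differed by at most 0.32. Cox6b1, with 8985, 11362 and 11545, was 0.42 higher in Triple than in CpG. Cox5a and Cox5b, which form part of the complex's matrix side, went opposite ways. Cox5a had 144940 in CpG, 110650 in IFN-γ + αIL-10R and 151250 in Triple (0.36 for CpG and 0.48 for Triple against IFN-γ + αIL-10R), and Cox5b had 38451, 51366 and 41925 (−0.44 and −0.26). Cox5a was thus lowest in IFN-γ + αIL-10R, where Cox5b was highest.

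Of the restricted forms, Cox6a2, the heart and skeletal muscle form of Cox6a, had signals of 1467 in CpG, 1017 in IFN-γ + αIL-10R and 1501 in Triple. It was 1.51-fold higher in Triple than in IFN-γ + αIL-10R (0.59), just past the threshold, and was not called with normexp or spike-in scaling. Cox6a2 and Cox5a had their spots in the first 48 of the 384 rows of the array, as did Ndufaf4 and Ndufaf7. Over all genes, the share past 1.5-fold for Triple against IFN-γ + αIL-10R was 10.5% higher and 14.0% lower in those rows and 11.5% and 13.3% elsewhere. The part of array position in these members' values was not tested.

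Cox7a1, the heart and skeletal muscle form of Cox7a, had the largest difference of all subunits well above background on every array. Its signals were 1207 in CpG, 1702 in IFN-γ + αIL-10R and 392 in Triple, so that it was lowest in Triple, 4.25-fold lower than in IFN-γ + αIL-10R (−2.09) and 2.96-fold lower than in CpG (−1.57). With normexp these values were −1.89 and −1.38. Its mean log2 level of −2.26 lay just under the limit of −2, with Cox6a2 (−1.77) just above it, so that Cox7a1 is not among the 70 subunits counted. It was measured by 1 probe, at chr7:30970337-30970948 on mm9. Cox4i2, the lung form of Cox4, was dim on all arrays (191, 196 and 181), as was Cox6b2, the testis form of Cox6b (157, 222 and 186). Cox7b2, Cox8b and Cox8c were not well above background on any array.

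**Figure D4:**
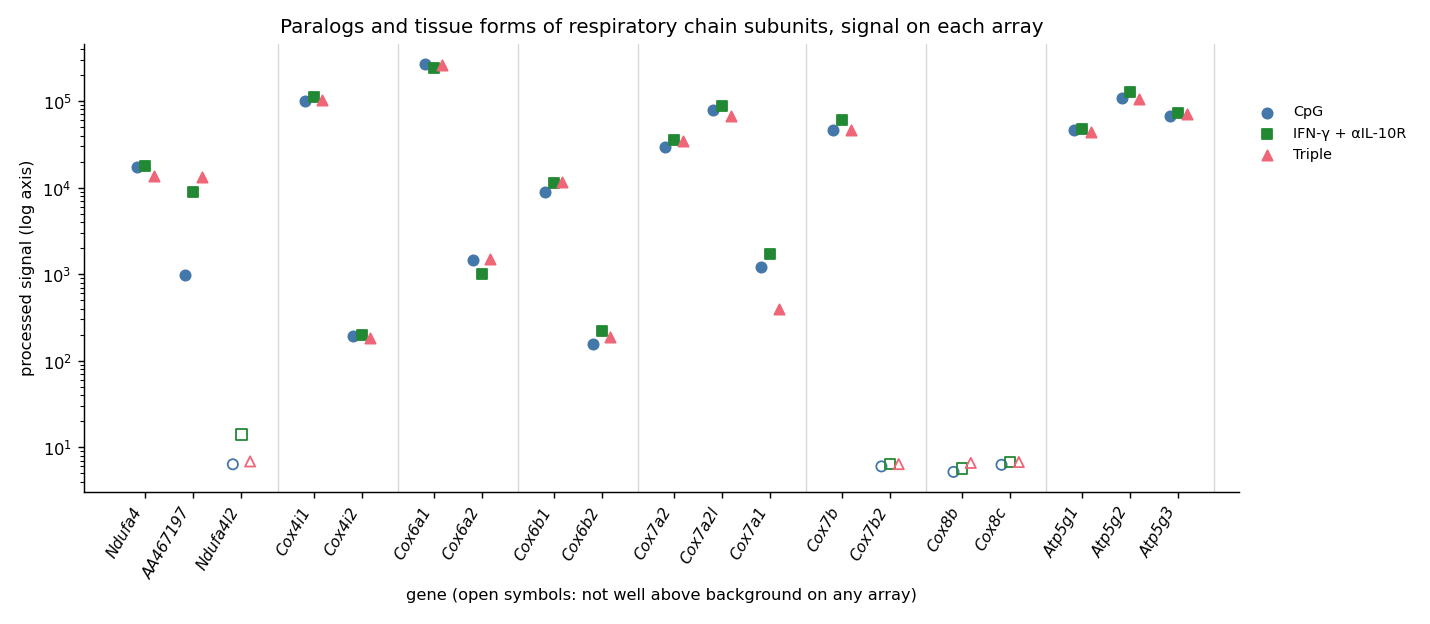
Processed signal on each array (log axis, not scaled between arrays) for genes of the paralog families and tissue forms, to be compared within a gene, since each gene has its own probe. AA467197 is low in CpG only (982 against 8908 and 13281), Cox7a1 is low in Triple (392), and open symbols mark genes not well above background on any array.

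Ndufa4, first described in complex I and now counted with complex IV, had signals of 17332 in CpG, 17694 in IFN-γ + αIL-10R and 13753 in Triple (−0.28 and −0.33 for Triple). AA467197, also known as Nmes1, encodes a paralog that can take the place of Ndufa4 in complex IV. It is not found by the naming rule and was read from the list of paralogs. Its signals were 982 in CpG, 8908 in IFN-γ + αIL-10R and 13281 in Triple, so that it was high on both arrays with IFN-γ and αIL-10R. These agents were always given together, so that their parts cannot be told apart. It was 14.1-fold higher in Triple than in CpG (3.81) and 1.52-fold above IFN-γ + αIL-10R (0.61), and CpG was 9.23-fold lower than IFN-γ + αIL-10R (−3.21). Over the alternatives the difference between Triple and CpG was 3.70 to 3.89. Ndufa4l2, the third of these paralogs, known from hypoxic cells, was not well above background on any array.

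Complex V makes ATP. The catalytic F1 subunits Atp5a1 and Atp5b had signals of 38227 and 91877 in CpG, 42255 and 103500 in IFN-γ + αIL-10R, and 43195 and 111090 in Triple. Both were slightly higher in Triple than in CpG (0.23 and 0.33) and at most 0.13 higher than in IFN-γ + αIL-10R. The genes for subunit c of the membrane ring, which encode the same mature protein, had 46672, 47398 and 43768 (Atp5g1), 107810, 126020 and 106690 (Atp5g2), and 67792, 73325 and 71418 (Atp5g3). At the probes used, none of the 3 differed by more than 2 technical SD between any pair of arrays. The other probe of Atp5g2 did, with −0.30 for Triple against IFN-γ + αIL-10R. In Triple against IFN-γ + αIL-10R, the 10 subunits of the Fo part and the stalk lay at −0.20 relative to all genes (8 of 10 under) and the 5 of F1 lay 0.10 above (2 of 5 under), with −0.25 to −0.20 and 0.06 to 0.10 over the alternatives. Atp5k, a small membrane subunit that takes part in pairing of the enzyme, had the largest difference of the complex, with 35415 in CpG, 48717 in IFN-γ + αIL-10R and 38456 in Triple (−0.48 for CpG against IFN-γ + αIL-10R).

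Members that are not subunits stood at both ends of the differences. The complex I assembly factor Ndufaf7, a methyltransferase, had 2544 in CpG, 2224 in IFN-γ + αIL-10R and 1274 in Triple, and was 1.92-fold lower in Triple than in CpG (−0.94) and 1.71-fold lower than in IFN-γ + αIL-10R (−0.77). Ndufaf4 went the other way, with 3646, 2871 and 4175 (0.25 and 0.57 for Triple), and Ndufaf3, with 2858, 2485 and 3004, was 0.30 higher in Triple than in IFN-γ + αIL-10R. Ndufaf2 had 2245, 1984 and 1608 and was lowest in Triple (−0.42 and −0.27). Atp5sl, now called Dmac2 and needed for assembly of complex I rather than ATP synthase, had 3980, 5291 and 3238 (−0.68 for Triple against IFN-γ + αIL-10R). Cox7a2l, listed as a factor for supercomplexes of complexes III and IV, had 78540, 86779 and 67223 (−0.34). Supercomplexes were not measured, and which form of Cox7a2l these mice carry was not examined.

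Of the 93 members, 6 had no value on all arrays because the background of their spot was marked as an outlier on at least 1 array. With those spots kept, Cox8a had signals of 115420 in CpG, 145020 in IFN-γ + αIL-10R and 146010 in Triple at its brighter probe, Ndufa13 93106, 103340 and 83946, and Ndufs3 22980, 35638 and 27522. Ndufv2 had 21297, 22695 and 20569, Ndufaf6 1151, 1155 and 963, and Ndufb2 21843, 24031 and 18787 at its brighter probe. Ndufs3, a core subunit of complex I, was then −0.66 in CpG against IFN-γ + αIL-10R, and the mark was on the IFN-γ + αIL-10R array. For 27 members at or above the limit, 36 further probes could be compared, being well above background on every array. They differed from the probe used by more than 2 technical SD in 3 cases for Triple against IFN-γ + αIL-10R, 4 for Triple against CpG and 2 for CpG against IFN-γ + αIL-10R, in Ndufv3, Ndufb11, Uqcrb, Uqcrq and Atp5g2. The sign was that of the probe used for 29, 28 and 34 of the 36 in the same order, so that the sign of small differences can depend on the probe.

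The 13 subunits encoded in mitochondrial DNA, of which 12 reached the limit, also had none past 1.5-fold, 0 of 12 in each comparison, where between 8.74% and 13.3% of all genes passed in one direction. Their medians were −0.05 for Triple against IFN-γ + αIL-10R, −0.01 for Triple against CpG and −0.04 for CpG against IFN-γ + αIL-10R. Among 26 assembly factors at or above the limit, members of the Nduf family included, 1 (Ndufaf7) was lower in Triple than in IFN-γ + αIL-10R at 1.5-fold and none higher. In Triple against CpG 3 were higher (Coa5, Sdhaf1 and Cox11) and 1 lower (Ndufaf7 again), and Coa5, a factor for complex IV, was the most changed, with 4468 in CpG, 9321 in IFN-γ + αIL-10R and 12735 in Triple (1.57). Of 10 genes for transcription and regulation of mitochondrial genes at or above the limit, 0 passed 1.5-fold in Triple against IFN-γ + αIL-10R and 1 in Triple against CpG (Esrra, an orphan receptor that drives such genes, 0.59). Esrra fell just short of 1.5-fold in Triple against IFN-γ + αIL-10R (0.57). Tfam, the mitochondrial transcription factor, had 1828, 2280 and 1649 (−0.44 for Triple against IFN-γ + αIL-10R). The coactivator Ppargc1a was not well above background on any array, and Ppargc1b, below the limit, had 41.4 in CpG, 217 in IFN-γ + αIL-10R and 177 in Triple. Of 70 mitochondrial ribosomal proteins at or above the limit, 5 were higher (Mrpl45, Mrpl52, Mrpl53, Mrpl54 and Mrps18b) and 1 lower (Mrpl42) at 1.5-fold in Triple against IFN-γ + αIL-10R. All these lists are read beside 11.3% higher and 13.3% lower among all genes in Triple against IFN-γ + αIL-10R, and 12.0% and 12.3% in Triple against CpG. These ribosomal proteins, Esrra, Sdhaf1 and Cox11 were named after their values had been seen.

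Some genes next to the chain differed more than any of the 70 subunits. Of 10 electron carriers and quinone-linked enzymes at or above the limit, 1 (Gpd2) was higher and 2 (Coq2 and Dhodh) lower at 1.5-fold in Triple against IFN-γ + αIL-10R, which is near the 11.3% and 13.3% of all genes. Gpd2, the mitochondrial glycerol 3-phosphate dehydrogenase that feeds electrons into ubiquinone, had 1060 in CpG, 661 in IFN-γ + αIL-10R and 3139 in Triple (2.28 and 1.62 for Triple against IFN-γ + αIL-10R and against CpG). Its signals in CpG and in IFN-γ + αIL-10R lay under the limit, and its mean reached the limit only through Triple. Coq2, an enzyme of ubiquinone synthesis, was high in IFN-γ + αIL-10R alone, with 7433, 16473 and 8054. Of 6 nucleotide carriers, uncoupling proteins and inhibitors at or above the limit, 2 were lower at 1.5-fold in Triple against IFN-γ + αIL-10R, and Ucp2 (−0.58) and Ucp3 (−0.58) fell just short of it. In CpG against IFN-γ + αIL-10R, Ucp2 (−0.68) and Ucp3 (−0.62) were lower at 1.5-fold, as were 10.2% of all genes. The ATP synthase inhibitor Atpif1 had 100950, 89513 and 49954 and was lowest in Triple (−0.81 and −0.96 against IFN-γ + αIL-10R and CpG). The adenine nucleotide carrier Slc25a4 had 35567, 27740 and 17202 and was also lowest in Triple (−0.66 and −0.99). Nos2, whose product nitric oxide inhibits complex IV, had 155, 448 and 72449. Irg1, now called Acod1, whose product itaconate inhibits complex II, had 11599, 21684 and 244380. The mitochondrial superoxide dismutase Sod2 had 130100, 27731 and 258270. In the list of enzymes whose products act on the chain, Hmox1 was the other gene at or above the limit. All 4 were over 2-fold higher in Triple than in IFN-γ + αIL-10R, with a median of 3.39, as were 5.25% of all genes. Nos2 reached the limit only through its signal in Triple, so that the limit fixed its place among them. The list also held Hif1a, a transcription factor and not an enzyme. The probe used for it is annotated to a cDNA rather than a RefSeq mRNA. It was not well above background on any array, so that the level of Hif1a cannot be read from it. Against CpG 3 of the 4 were 2-fold higher, as were 6.64% of all genes. Hmox1, with 59939 in CpG, 17161 in IFN-γ + αIL-10R and 57912 in Triple, differed by 0.01.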

How the data were processed

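Total RNA of BMDMs from 3 conditions was labeled in 1 colour (Cy3) and hybridized to Agilent SurePrint G3 mouse arrays, 1 per condition, on 1 slide with 1 scan time. Scans were read by the authors with Agilent Feature Extraction 10.10.1.1. The processed signal that they deposited is a linear intensity with the background subtracted. They also deposited a table of log2 values, which differed from the log2 of the processed signal by a single offset for each array (column medians −4.26, −4.38 and −4.27 for CpG, IFN-γ + αIL-10R and Triple) and was used as an alternative. Its normalization is not given in the sources used here.

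Control spots were dropped, as were spots that the software marked as outliers, and log2 values were averaged within a probe. Each array was shifted by the 75th percentile of the 21233 probes that were well above background in every condition. Dim signals were raised to the lowest one counted as well above background. A gene took its probe with the highest mean, which favours its brightest transcript form. A gene was called if it was well above background on the brighter array and past 1.5- or 2-fold. Median differences of lists are set beside those of all 8045 genes with a mean of at least 0.25 times the 75th percentile signal. Signal over background and the single array per condition limit the precision. The members and lists were chosen with earlier results of these data known. The genes named are the 5 highest and 5 lowest members per comparison, the paralogs and tissue forms, complex II, 9 central subunits of the other complexes (1 of which is not reported here), the largest differences of other lists, and Irg1, Nos2, Ppargc1a, Ppargc1b and Tfam. All 87 measured members had a current name in a RefSeq table of GRCm38.p6, used for names and promoters only, and probe positions came from the mm9 annotation of the array. Alternatives were normexp (offset 50, limma 3.58.1, R 4.3.3), 5 other scalings, other probe choices, outlier spots kept, other thresholds and member sets, and, added after seeing the data, leaving out genes whose only spot lies in the first 48 rows, setting the signal limit on the brightest array, and counts with dim or all members. Calls were tested on simulated data with known changes, which checks the procedure only and does not stand in for replicate arrays. Python 3.11.15, numpy 2.4.6 and pandas 2.3.3 were used.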

Additional observations from a re-analysis of the deposited data

How the results depend on the processing

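No paired analysis was possible because the conditions had single arrays. A median or fold counts as moved where its change exceeded 1 technical SD (0.13), and a count where it changed over 1.5 times. Of the named genes' 135 differences, 65 exceeded 2 technical SD, and 0 of these changed sign under the alternatives tried on them. With the threshold lowered to a log2 difference of 0.32 the subunits counted as higher and lower were 2 and 14 for Triple against IFN-γ + αIL-10R, 5 and 5 for Triple against CpG, and 2 and 9 for CpG against IFN-γ + αIL-10R, against 1 and 1, 0 and 0, and 0 and 1 at 1.5-fold and 0 throughout at 2-fold. With spike-in scaling, which used 5 of 10 spike-in probes and moved all genes alike, the medians of Triple against IFN-γ + αIL-10R, reported as −0.16, −0.05, 0.01, 0.03 and −0.21 for complexes I to V before the shift of all genes is taken off, became −0.34, −0.22, −0.17, −0.15 and −0.38. The counts at 1.5-fold became 0 higher and 5 lower for Triple against IFN-γ + αIL-10R, 1 lower for Triple against CpG and 2 lower for CpG against IFN-γ + αIL-10R. The number higher in Triple than in IFN-γ + αIL-10R, 1 as reported, was 2 with the 75th percentile over all probes, with median scaling and with the authors' table, and 0 with normexp and without the first 48 rows. The number lower in Triple than in CpG, 0 as reported, was 1 with quantile normalization and with the mean of all probes. The number lower in CpG than in IFN-γ + αIL-10R, 1 as reported, was 2 with outlier spots kept, where Ndufs3 is added. With the 6 dim subunits included, and with the limit set on the brightest array, the numbers lower in Triple rose by Cox7a1 to 2 at 1.5-fold and 1 at 2-fold against IFN-γ + αIL-10R and to 1 and 1 against CpG. With all members that the rule finds, those at 1.5-fold were 3 and 1. These counts were added after seeing the data. With dim members included, the median of complex IV for CpG against IFN-γ + αIL-10R was −0.19 in place of −0.05. Apart from the added members and the common shift of spike-in scaling, the cause was not tested. RefSeq mRNA probes only, and no filter and no lower limit, moved none of the medians by complex or the counts, and all members that the rule finds moved none of the medians. The 6 subunits below the signal limit and the single probe of Cox7a1 are where dim signal limits the values most.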
